A study of Mus musculus with 12 samples.

Results

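The comparison described here sets mouse lymphoma cells whose interferon-γ (IFN-γ) was neutralised after 6 h against cells that received none, and asks what messenger RNA difference was present at collection. It uses 6 of the 12 samples of the series, 3 labelled as exposed for 6 h and 3 labelled as unstimulated. All genes that passed an expression filter were compared. Every sample came from an Eµ-myc B cell lymphoma line of C57BL/6 origin, a transgenic model in which an enhancer of the immunoglobulin heavy chain locus drives the Myc oncogene, and all were grown in RPMI 1640 with 10% FCS. The 6 h group received recombinant mouse IFN-γ at 5 ng/mL and then, at 6 h, the neutralising antibody XMG1.2 at 50 µg/mL. Its cells were taken 24 h post stimulation, so they spent the remaining time with antibody. The other groups of the series were blocked at 1 h, or exposed for 24 h. The labels do not say whether unstimulated cells received antibody or when they were collected, so an effect of antibody or of culture time cannot be told apart from that of IFN-γ. Nor do they state if a group's 3 samples were separate cultures, so the p-values measure the spread between these samples, which may be technical. All values describe 1 cell line, and in bulk RNA fewer expressing cells cannot be told apart from less RNA per cell.

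IFN-γ binds a receptor made of Ifngr1 and Ifngr2, and the kinases Jak1 and Jak2 then activate transcription factors that bind gamma-activated sites in the nucleus. A first wave of targets includes the transcription factor Irf1 and the inhibitor Socs1. Irf1 and related factors act on interferon-stimulated response elements of later genes, among them guanylate-binding proteins. Genes for major histocompatibility complex (MHC) class I chains, which show peptides to CD8 T cells, also carry an SXY module with X2 and Y boxes, through which the transactivator Nlrc5 works. In B cells the pathway is best known for raising antigen presentation.

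Promoters of 5 genes are printed because the results turn on class I genes, a guanylate-binding protein and the early factor Irf1. Each is the 250 bases before the start site in the RefSeq table of GRCm38.p6, read 5′ to 3′ on the gene's strand. Capitals mark matches, on either strand, to 4 motifs: the gamma-activated site TTCNNNGAA, the interferon-stimulated response element (GAAA, any 2 bases, then GAAA), the X2 box TGACG and the Y box ATTGG. The windows are chr17:34000348-34000597 (minus strand) for H2-K1, chr17:35262844-35263093 (plus) for H2-D1, chr2:122147437-122147686 (plus) for B2m, chr3:142620413-142620662 (plus) for Gbp2 and chr11:53769764-53770013 (plus) for Irf1.
H2-K1: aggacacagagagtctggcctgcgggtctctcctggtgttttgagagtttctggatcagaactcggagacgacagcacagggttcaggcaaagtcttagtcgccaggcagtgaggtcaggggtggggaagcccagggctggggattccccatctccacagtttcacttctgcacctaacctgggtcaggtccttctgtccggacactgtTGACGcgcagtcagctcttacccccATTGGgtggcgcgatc
H2-D1: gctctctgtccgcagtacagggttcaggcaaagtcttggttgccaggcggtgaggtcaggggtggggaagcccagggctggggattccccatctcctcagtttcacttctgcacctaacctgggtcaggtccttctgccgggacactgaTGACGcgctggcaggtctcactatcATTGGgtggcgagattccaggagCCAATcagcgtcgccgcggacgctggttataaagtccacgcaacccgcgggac
B2m: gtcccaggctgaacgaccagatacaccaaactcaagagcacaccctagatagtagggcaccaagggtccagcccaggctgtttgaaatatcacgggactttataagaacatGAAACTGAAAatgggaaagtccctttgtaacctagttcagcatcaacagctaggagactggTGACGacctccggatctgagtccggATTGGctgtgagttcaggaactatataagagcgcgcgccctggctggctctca
Gbp2: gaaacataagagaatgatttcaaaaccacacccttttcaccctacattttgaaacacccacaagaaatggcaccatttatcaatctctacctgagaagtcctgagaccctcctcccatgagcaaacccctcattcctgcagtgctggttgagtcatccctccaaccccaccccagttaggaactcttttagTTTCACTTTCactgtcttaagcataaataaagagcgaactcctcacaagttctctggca
Irf1: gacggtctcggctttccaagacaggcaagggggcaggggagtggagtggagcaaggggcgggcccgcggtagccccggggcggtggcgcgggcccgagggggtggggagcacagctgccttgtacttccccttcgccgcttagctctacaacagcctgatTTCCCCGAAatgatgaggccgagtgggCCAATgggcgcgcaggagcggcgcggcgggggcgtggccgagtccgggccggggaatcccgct

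The promoters of H2-K1, H2-D1 and B2m each hold TGACG followed, after 20 bases, by ATTGG. That spacing was searched for after the matches had been seen, and 20 of 9451 promoters of tested genes (0.212%) hold it. B2m also has GAAACTGAAA starting 139 bases before the start site. The H2-K1 and H2-D1 windows hold no match to the response element pattern. Both contain tttcacttct, which resembles the Gbp2 match TTTCACTTTC, and the fixed pattern misses such variants. The Gbp2 promoter has a response element on the minus strand and neither an X2 nor a Y box match, while Irf1 has 1 gamma-activated site match, TTCCCCGAA, that starts 90 bases before the start site. Of the genes called higher, 122 of 167 had a promoter in the table; 10.7% of these held the response element and 9.84% the gamma-activated site, against 2.65% and 5.65% of all 9451. The X2 box was in 27.0% of them and the Y box in 34.4%, against 28.4% and 37.3% of all. Of the genes called lower 45 of 61 had a promoter, and they held the gamma-activated site in 11.1%, the response element in 4.44%, the X2 box in 37.8% and the Y box in 51.1%, so the gamma-activated site was no more frequent among rises than among falls. The windows are a description of letters, not of binding, and a match elsewhere was not looked for. Both boxes are short, and their matches overlap no other motif in the 5 windows.

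The 6 libraries held 49440358 to 59184574 counts each, where each mate of a read pair was counted. B cell genes were abundant, with Pax5 at 564 to 685 CPM (counts relative to library sizes adjusted by TMM factors), and Cd79a and Ighm were also high; Ms4a1 was low at 6.56 to 9.20 and Cr2 was at 0. Summed markers of myeloid cells were 12.8 to 14.2 CPM in unstimulated and 13.6 to 14.1 CPM in 6 h libraries, with 5 of 17 at 0 throughout. T and NK cell markers summed to 22.5 to 27.0 and 27.1 to 32.6 CPM, nearly all of it Cd2, and 10 of 18 were at 0, including Cd4, Cd8a and Trbc1. Stromal and endothelial markers summed to 60.1 to 61.2 and 66.4 to 71.8 CPM, nearly all Pecam1, with 7 of 15 at 0; Pecam1, an adhesion molecule, was itself called higher (0.20 ± 0.05), a call lost in 4 of 6 fits without 1 compared library, up to an adjusted p of 0.129 without 6 h replicate 1. The part of other cells in the results was not tested. The library of 6 h replicate 3 stood apart: on a principal component holding 7.84% of the variance of all 12 libraries it lay at -39.1, and the other 11 lay between -0.44 and 11.8. Chi-square divided by its degrees of freedom was 7.85 and 7.90 between it and the other 6 h libraries, against 2.41 between replicates 1 and 2. Between unstimulated libraries it was 5.37, 3.815 and 6.12, so 6 h replicates 1 and 2 were the closest pair. Cytosolic ribosomal protein genes were 0.21 higher in it on the log2 scale than in the other 6 h libraries (median of 72), and B cell transcription factor genes 0.17 lower (median difference -0.165 over 28). Among genes with a 6 h mean of at least 10 CPM, its largest differences from the other 6 h libraries were higher Fosb, Rps27rt, Mir6236, Rpl39-ps and Rps29 and lower Gm42664, Rpl17-ps5, Gm12715, Gm4759 and Socs5. Results are therefore given with and without it.

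After 6 h of blocked exposure 228 of 14299 tested genes (1.59%) differed from unstimulated cells at an adjusted p under 0.05 in edgeR's quasi-likelihood test, 167 higher (1.17%) and 61 lower (0.427%). The changes were small. The median log2 fold change was 0.28 among genes called higher and -0.24 among those called lower, and 207 of 228 lay within 2-fold. At least 2-fold were 20 rises and 1 fall. Leaving out 6 h replicate 3 raised the count to 531 of 14598 genes (3.64%), 371 higher (2.54%) and 160 lower (1.1%), and 197 of the 228 were among them. Without unstimulated replicate 1 it fell to 89. Called in all 6 fits that each left out 1 of the compared libraries were 70 genes, 59 higher and 11 lower.

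**Figure D1:**
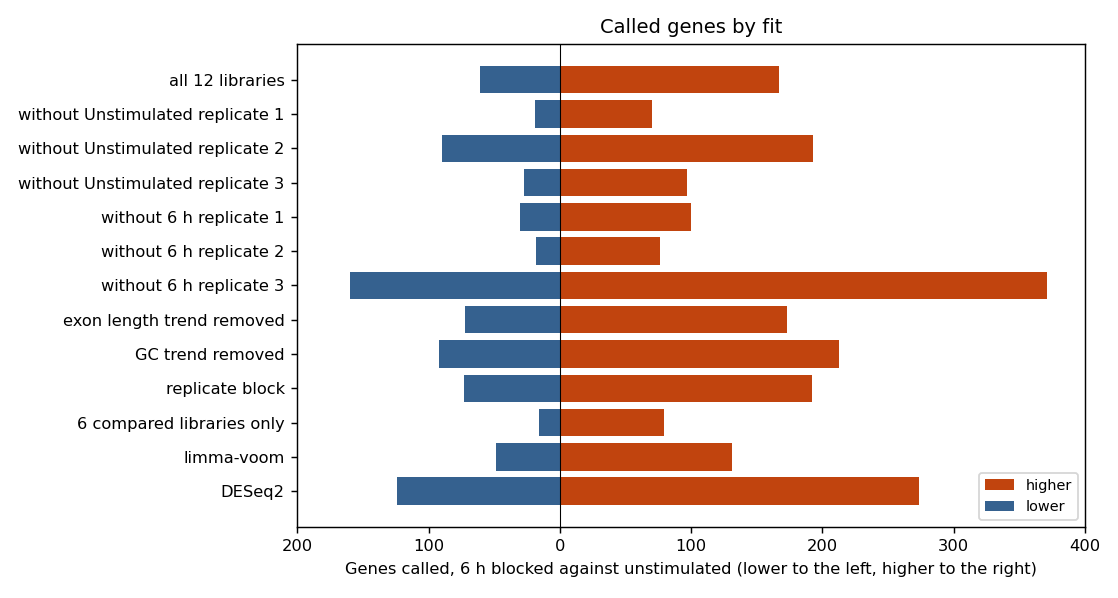
Genes called in 6 h blocked against unstimulated cells under each fit, with the number higher drawn to the right and the number lower to the left on a linear axis. The fit of all 12 libraries calls 167 and 61, and leaving out 6 h replicate 3 gives 371 and 160, more than any other fit drawn.

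The called genes differed in transcript length and GC content. Genes called higher had a median exon length of 5808 bases and those called lower 3292, against 3709 for all tested. In the quartile of longest genes 76 were called higher and 8 lower, and in the shortest 8 and 11. The median log2 fold change rose from -0.02 in the shortest quartile to 0.03 in the longest, and without 6 h replicate 3 from -0.06 to 0.05. Taking a smooth trend of each library with exon length out left 245 genes called (1.72%; 1.21% higher and 0.504% lower), 195 of them in common with the 228. Median GC was 46.6% in genes called higher and 51.6% in those called lower, against 49.3% for all tested, and taking a trend with GC out left 305 called, 213 higher and 92 lower, 215 of them in common with the 228. Beside each group count below, the count with the length trend removed is given where it differs. Group counts with the GC trend removed are not given.

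**Figure D2:**
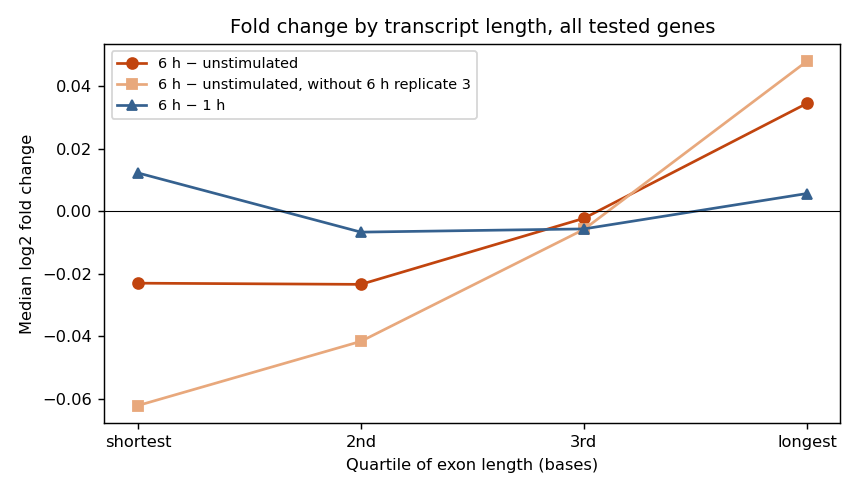
Median log2 fold change (vertical axis) of all tested genes in each quartile of exon length (horizontal axis, shortest to longest), for 6 h against unstimulated with and without 6 h replicate 3 and for 6 h against 1 h. The 2 lines against unstimulated climb to 0.03 and 0.05 in the longest quartile, and the line against 1 h stays between -0.01 and 0.01.

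Most of the MHC class I chains that could be tested rose. Of 19 listed members 12 passed the filter and 8 of these rose, against 1.17% of all tested genes, with 0 lower; the median log2 fold change of the 12 was 0.87, and that of all genes 0. The same number, 8, rose without 6 h replicate 3, and 9 with the length trend removed. Members that are low in unstimulated cells could pass the filter through other groups, so the 12 are not a sample of all 19.

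H2-K1, a classical class I heavy chain (chr17:33996017-34000347), stood at 46.0, 42.1 and 47.2 CPM in the unstimulated libraries and at 101, 98.6 and 104 CPM in the 6 h libraries. The groups were far apart, with 6 h replicate 3 beside the other 6 h libraries. The log2 fold change was 1.16 ± 0.05 (SE, n = 3 per group, edgeR adjusted p = 1.01e-15), and 1.14 without 6 h replicate 3. H2-D1, the other classical heavy chain of this strain, was at 81.3, 68.4 and 79.0 CPM and then at 140, 135 and 139 CPM. All of its 6 h values lay above all unstimulated ones, and the difference was 0.86 ± 0.05 (adjusted p = 1.78e-11). B2m, the light chain that every class I complex needs, rose from 287, 333 and 311 CPM to 458, 442 and 515 CPM. The groups did not overlap and 6 h replicate 3 was the highest, so the log2 fold change was 0.60 ± 0.06 with it (adjusted p = 4.88e-07) and 0.53 without it.

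The non-classical chains H2-Q4, H2-Q5, H2-Q6, H2-Q7 and H2-T10, which resemble the classical ones and have more restricted roles, also rose. H2-Q5 and H2-T10 are annotated as polymorphic pseudogenes. H2-Q4 was at 3.24, 2.84 and 3.65 CPM unstimulated and at 8.50, 8.43 and 8.31 CPM after 6 h, the 3 treated libraries lying close together and well above the others (1.37 ± 0.10, adjusted p = 2.63e-10). H2-T10 went from 3.36, 3.23 and 2.95 to 5.00, 5.95 and 6.72 CPM (0.89 ± 0.12). H2-Q5 rose by 2.12 ± 0.21, H2-Q6 by 2.28 ± 0.28 and H2-Q7 by 3.11 ± 0.51, each from under 1 CPM, where a fitted fold change is imprecise. Reads of these near-identical genes, and of H2-K1 and H2-D1, may be divided among the genes or dropped, and the value of a single gene is uncertain. H2-T22, H2-T23 and H2-T24 were not called, with differences of 0.15, 0.21 and 0.19. H2-M3 missed the threshold at an adjusted p of 0.0543.

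**Figure D3:**
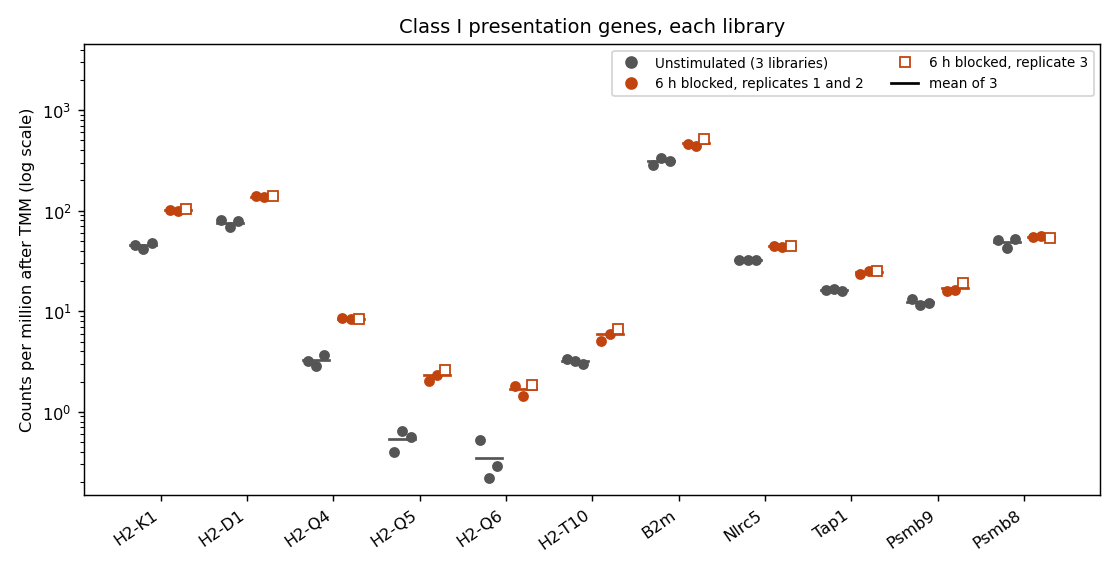
CPM after TMM on a log axis for class I presentation genes in each of the 6 libraries, with unstimulated in grey, 6 h in red, 6 h replicate 3 as an open square and bars at the mean of 3. The 2 groups are separate for each gene drawn, and several of the genes met a naming rule that required this. H2-K1 means are 45.1 and 101 CPM, and Psmb8, which was not called, lies at 42.7 to 52.4 and 53.8 to 55.8 CPM.

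Genes that load class I moved unevenly. Of 9 tested, Nlrc5 and Tap1 rose and Pdia3 fell, where 1.17% of all tested genes rose and 0.427% fell. Nlrc5, the transactivator of class I genes (chr8:94434356-94527272), was at 32.7, 32.7 and 32.2 CPM unstimulated and at 44.8, 44.0 and 44.1 CPM after 6 h, a narrow spread in both groups without overlap (0.45 ± 0.05, adjusted p = 8.67e-07). Tap1, a subunit of the peptide transporter into the endoplasmic reticulum, was at 16.2, 16.5 and 15.8 CPM and then at 23.3, 25.3 and 25.2 CPM, again without overlap (0.61 ± 0.06, adjusted p = 1.21e-07). Its partner Tap2 was at 21.3 ± 1.5 and 21.8 ± 1.5 CPM, the bridging factor Tapbp at 35.9 and 36.7 CPM, and neither was called. Among 5 immunoproteasome and activator genes Psmb9, an inducible catalytic subunit, rose from 13.3, 11.5 and 12.02 to 16.1, 16.2 and 18.9 CPM (0.47 ± 0.08, adjusted p = 0.000439). Psmb8, the neighbouring inducible subunit, was 0.17 ± 0.06 higher and was not called (adjusted p = 0.142); Psmb10, Psme1 and Psme2 were at -0.02, -0.01 and -0.05.

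Class II presentation, which serves CD4 T cells, showed 1 call among 17 tested members, H2-Ob, a subunit of a modulator of class II loading (0.24 ± 0.05, adjusted p = 0.0193). The call did not survive in 3 of 6 fits with 1 compared library removed, up to an adjusted p of 0.187 without unstimulated replicate 1. Without 6 h replicate 3, and with the length trend removed, 3 members were called higher. Of all tested genes 1.17% rose, 2.54% without that library and 1.21% with the trend removed. Ciita, the class II transactivator, was at 7.12, 7.03 and 8.29 CPM and then at 8.99, 8.94 and 7.58 CPM, and the groups overlapped (adjusted p = 0.396). Cd74, the invariant chain, was at 111 and 111 CPM.

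The guanylate-binding proteins and immunity-related GTPases, which attack the vacuoles of intracellular pathogens, had measurable rises at very low levels. Of 9 guanylate-binding proteins tested 3 rose, and of 12 immunity-related and very large GTPases 6 rose (5 without 6 h replicate 3), where 1.17% of all tested genes rose (2.54% without that library). Members under 1 CPM in unstimulated cells, 8 and 6 of these, could enter the test through the 24 h group alone, where they are high, so the counts describe only the members tested. With limma-voom 1 and 4 were called. Gbp2 (chr3:142620602-142638008) was at 0.431, 0.2003 and 0.408 CPM unstimulated and at 1.61, 1.34 and 1.68 CPM after 6 h. No 6 h library came near the unstimulated ones, and the difference was 2.12 ± 0.18 (adjusted p = 9.17e-09). Gm1966, annotated as a pseudogene of the very large GTPase family, went from 5.14, 6.51 and 7.25 CPM to 15.9, 16.6 and 16.5 CPM, with the 6 h libraries close together (1.37 ± 0.08, adjusted p = 4.48e-12). Gvin1, of the same family, rose from 2.14, 2.66 and 1.97 to 3.87, 3.65 and 3.99 CPM (0.77 ± 0.11), and Ifi47, an immunity-related GTPase, rose by 0.79 ± 0.14. Gm4070 rose from under 1 CPM (2.51 ± 0.35). Iigp1, which disrupts pathogen vacuoles, had 2 counts summed over unstimulated cells and 68 after 6 h, a ratio of 33.3 with a 95% exact interval of 5.58 to 1350 on read pairs that covers counting error only. Gbp3 rose by 0.36 ± 0.07, and its call was lost without unstimulated replicate 3 (adjusted p = 0.0642). Gbp7 and Tgtp2 were called from under 1 CPM, and each call was lost in 4 of 6 such fits, up to adjusted p values of 0.223 and 0.176 without unstimulated replicate 1. Irgm1, Irgm2 and Igtp were not called, with differences of 0.08, 0.05 and -0.37. Gbp10 and Tgtp1 had 0 counts in the 6 libraries, which allows up to 6 counts over a group. Tgtp1 and Tgtp2 are near copies and are uncertain singly.

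No gene upstream in the pathway was called. Of 16 receptor, JAK-STAT and IRF genes edgeR called 0 with all libraries and 0 without 6 h replicate 3, DESeq2 and limma-voom also called 0, and 3 had an unadjusted p under 0.05. Their median log2 fold change was 0.06. Ifngr1 and Ifngr2 differed by -0.04 and 0.05. Irf1 was at 10.4, 10.5 and 10.8 CPM and then at 11.4, 12.3 and 12.5 CPM, without overlap and not called (0.19 ± 0.06, adjusted p = 0.109). Such separation of 3 from 3 in the higher direction occurred in 8.64% of all tested genes, and in the lower direction in 8.12%. Socs1, the inhibitor that binds JAK kinases, was at 0.395, 0.361 and 0.391 CPM and then at 0.763, 0.757 and 0.618 CPM (0.89 ± 0.24, adjusted p = 0.054). It was called at 0.98 without 6 h replicate 3 (adjusted p = 0.0293), and it was called with the length trend removed (adjusted p = 0.0434). DESeq2 called it (adjusted p = 0.0263) and limma-voom did not (0.227). It was the 1 of 11 tested feedback inhibitors that any of these fits called.

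The 24 h group gives the scale of these levels. In it 2667 genes (18.7%) were called against unstimulated cells, 10.3% of all tested being higher and 8.35% lower. Both comparisons use the same unstimulated libraries, so the values are set side by side as a description, with no test. H2-K1 was at 267 ± 8.5 CPM after 24 h, and its rise after 6 h came to 25.2% of the rise after 24 h. All 12 tested class I chains were called higher after 24 h; their rise after 6 h was 24.6% of the 24 h rise at the median, and between 5.29% and 39.0%. For Nlrc5, Tap1 and Psmb9 the figures were 7.13%, 7.01% and 6.75%. Gbp2 reached 962 ± 11.2 CPM after 24 h, so the 6 h rise was 0.125% of it, and for Gm1966 it was 2.19%. Irf1 was at 221 CPM after 24 h, with 0.721% of that rise present after 6 h. Leaving out 6 h replicate 3 gave a median of 24.4% for class I chains. Low members in the plot of these percentages could pass the filter through the 24 h group alone, so it describes only the members tested.

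**Figure D4:**
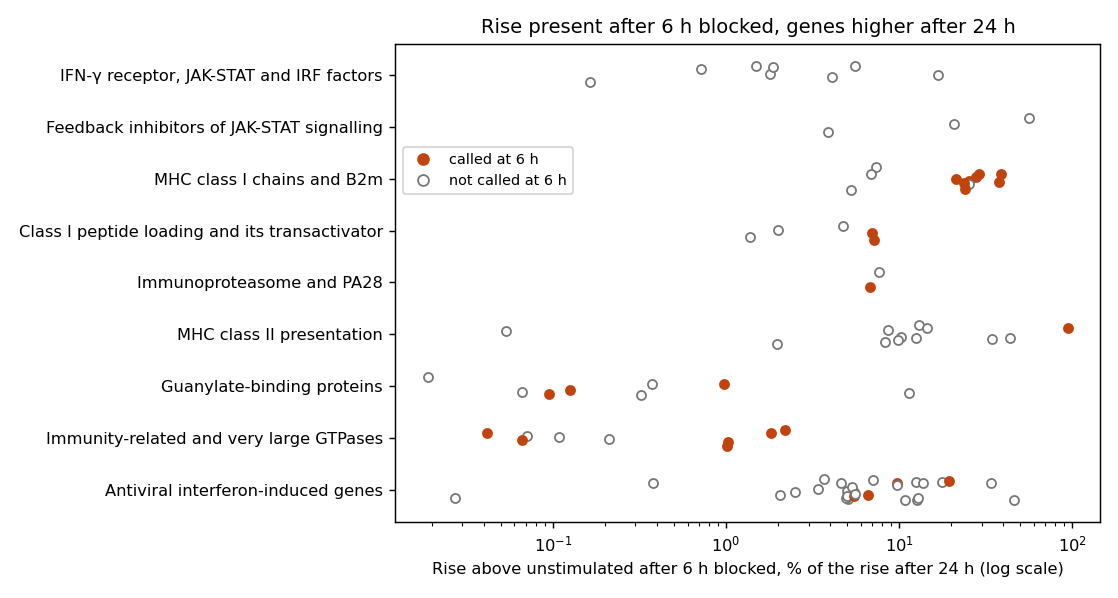
Each point is a gene called higher after 24 h; the log axis gives its rise above unstimulated after 6 h blocked as a percentage of its rise after 24 h, and filled points were called at 6 h. Of 106 members, 87 are drawn and 19 with a value of 0 or less are not. Class I chains lie between 5.29% and 39.0% and immunity-related and very large GTPases at or below 2.19%.

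Some other interferon-induced genes rose. Of all tested genes 1.17% rose, and 2.54% without 6 h replicate 3, shares to set beside each count here. Of the antiviral genes tested, 12 had an unstimulated mean under 1 CPM and could enter the test through the 24 h group alone. Of 38 tested antiviral genes 4 rose, with a median of 0.14 over the list: Slfn8, a Schlafen family member, by 0.62 ± 0.09 (5.46, 5.55 and 4.86 to 7.73, 8.22 and 8.37 CPM), Cmpk2, a mitochondrial nucleotide kinase, from under 1 CPM, Parp14, a mono-ADP-ribosyltransferase, by 0.24 ± 0.06, and Samhd1, which degrades deoxynucleotides, by 0.19 ± 0.04. The Slfn8 groups were apart and its call held in all 6 fits that left out a library. The calls of Cmpk2, Parp14 and Samhd1 were lost in 2 to 4 of them, up to adjusted p values of 0.254, 0.231 and 0.0818 without unstimulated replicate 1, and Parp14 was also lost without 6 h replicate 3 (0.106) and with the length trend removed. Without 6 h replicate 3, 3 antiviral genes rose. With the length trend removed 3 rose, beside 1.21% of all tested genes. Of 17 checkpoint, costimulatory and adhesion genes 2 rose, among them Lgals9, the lectin galectin-9, which went from 271, 281 and 290 to 337, 311 and 340 CPM (0.23 ± 0.04, adjusted p = 0.00322). Its groups did not overlap. Cd274, which encodes PD-L1, was at 5.72, 6.17 and 6.54 CPM and then at 7.504, 7.32 and 7.54 CPM, without overlap and not called (0.28 ± 0.11, adjusted p = 0.209). Of 12 cytokine and receptor genes Csf1, a macrophage growth factor, rose by 0.32 ± 0.06, and Il12a, a subunit of interleukin-12, by 0.52 ± 0.13; the Il12a call was lost in each of the 6 fits, up to 0.171 without unstimulated replicate 3. Of 26 cell death genes and 36 Myc network genes edgeR and limma-voom called 0 and DESeq2 1 in each list, and 5 in each had an unadjusted p under 0.05. Leaving out 6 h replicate 3, edgeR called 1 cell death gene higher and 0 Myc network genes. These counts cover listed members only, and Bmf, a cell death gene outside the list, was called higher and is described under other observations. Myc was at 1603, 1646 and 1592 CPM and then at 1703, 1694 and 1665 CPM (0.06 ± 0.04, adjusted p = 0.528).

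Genes of the B cell programme were among the rises. Rag1, a subunit of the recombinase that joins antigen receptor segments, was at 232, 243 and 221 CPM unstimulated and at 390, 388 and 305 CPM after 6 h. The groups were apart, with 6 h replicate 3 the lowest treated library, so the log2 fold change was 0.64 ± 0.07 with it (adjusted p = 0.000162) and 0.74 without it. Its partner Rag2 rose by 0.24 ± 0.06 (50.1, 58.9 and 50.2 to 62.8, 60.4 and 64.9 CPM), a call lost in 3 of 6 fits, up to 0.168 without unstimulated replicate 1. Of 28 B cell transcription factors 5 rose and 1 fell, beside 1.17% and 0.427% of all tested genes. Without 6 h replicate 3, whose level of these genes was lower, 9 rose and 1 fell, beside 2.54% and 1.1% of all. With the length trend removed 3 rose and 1 fell; the median exon length of the list was 8360 bases. Irf4, which drives plasma cell differentiation, rose from 435, 473 and 457 to 576, 583 and 548 CPM (0.32 ± 0.04, adjusted p = 2.06e-05). It makes up most of the summed plasma cell markers, which were 699 to 735 CPM unstimulated and 794 to 826 CPM after 6 h. Ebf1, a factor that specifies the B lineage, rose from 202, 220 and 202 to 275, 265 and 240 CPM (0.32 ± 0.05, adjusted p = 0.000136). Bach2, a repressor of plasma cell fate, rose by 0.27 ± 0.05 and its groups did not overlap. Rag1, Irf4, Ebf1 and Bach2 were also called higher after 1 h of blocked exposure, against the same unstimulated libraries. Their means were then 324, 555, 245 and 344 CPM. None of these genes was called for 6 h against 1 h. After 24 h their means were 320, 311, 175 and 287 CPM, beside unstimulated means of 232, 455, 208 and 280 CPM. Rag1 was then called higher than in unstimulated cells, Irf4 and Ebf1 lower, and Bach2 was not called. Foxp1 and Foxo1 rose by 0.19 ± 0.05 and 0.17 ± 0.04, and Spib, a factor related to PU.1, fell by 0.20 on the log2 scale. The 3 rises left with the length trend removed were Irf4, Ebf1 and Bach2, so the calls of Foxp1 and Foxo1 were lost there. Ikzf3 was called without 6 h replicate 3 (0.32, adjusted p = 8.22e-06) and not with it (0.21, adjusted p = 0.245), that library lying at 202 CPM and the other 6 h libraries at 264 and 265.

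**Figure D5:**
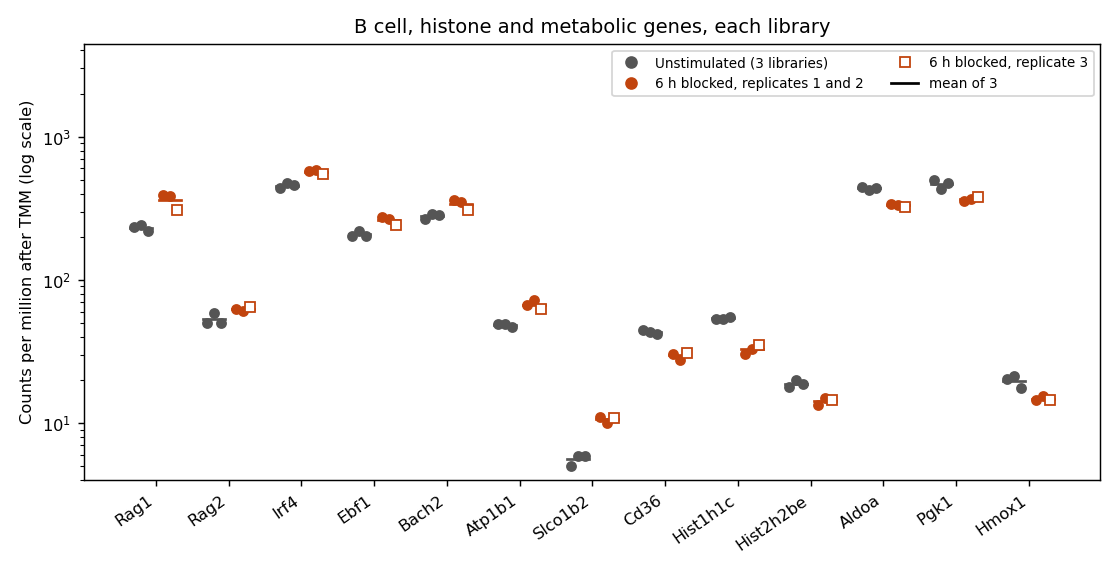
CPM after TMM on a log axis for B cell, transport, histone and metabolic genes in each of the 6 libraries, with unstimulated in grey, 6 h in red, 6 h replicate 3 as an open square and bars at the mean of 3. The 2 groups do not overlap for any gene drawn, and several of the genes met a naming rule that required this. For Rag1 the open square, at 305 CPM, lies below the other 6 h libraries at 388 and 390.

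Falls were fewer. Hist1h1c, a linker histone gene whose transcript can be polyadenylated (chr13:23738808-23740367), was at 53.2, 53.3 and 54.8 CPM unstimulated and at 30.5, 33.1 and 35.1 CPM after 6 h. The groups were far apart, and the gene fell by 0.71 ± 0.07 on the log2 scale (adjusted p = 7.46e-08). Hist2h2be, a core histone gene, fell by 0.41 ± 0.07 (18.0, 19.9 and 18.8 to 13.3, 14.9 and 14.4 CPM). These were the 2 of 26 tested clustered histone genes that were called, where 0.427% of all tested genes fell. The median of the list was -0.43, and 15 of its members had an unstimulated mean under 1 CPM. The list was 0.23 higher in 6 h replicate 3 than in the other 6 h libraries. Cd36, a scavenger receptor for fatty acids and lipoproteins, went from 44.6, 43.5 and 42.2 to 30.5, 27.8 and 31.1 CPM, without overlap, a fall of 0.54 ± 0.06 (adjusted p = 3.25e-06). Hist1h1c, Hist2h2be and Cd36 were also called lower after 1 h of blocked exposure, against the same unstimulated libraries. Their means were then 41.3, 14.7 and 34.8 CPM. After 24 h they were 37.0, 18.8 and 41.5 CPM, and only Hist1h1c was then called against unstimulated cells.

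Of all tested genes 0.427% fell, 1.1% without 6 h replicate 3 and 0.504% with the length trend removed, shares to set beside each count here. Of 35 glycolysis and hypoxia genes 4 fell and 0 rose: Aldoa, Pgk1, Ldha and Gapdh, enzymes of glycolysis. With the length trend removed 5 fell. Aldoa was at 444, 425 and 438 CPM and then at 341, 336 and 325 CPM, without overlap (-0.38 ± 0.05, adjusted p = 4.15e-06). Pgk1 went from 496, 430 and 471 to 353, 366 and 378 CPM (-0.35 ± 0.06). The falls of Ldha (-0.18 ± 0.04) and Gapdh (-0.17 ± 0.04) did not survive in 4 and 5 of 6 such fits, up to 0.158 and 0.249 without unstimulated replicate 1. Of 26 endoplasmic reticulum folding genes Manf, Pdia3, Pdia6 and Hyou1 fell, by 0.17 to 0.25 on the log2 scale, and 6 fell and 1 rose without 6 h replicate 3; 5 fell with the length trend removed. Those 4 calls were also lost in 3 to 5 of the 6 fits, up to 0.249 for Pdia6 without unstimulated replicate 1. After 24 h Manf and Pdia3 were called higher than in unstimulated cells, at means of 98.9 and 424 CPM against 85.6 and 339 CPM. Pdia6 and Hyou1 were not called then. Hmox1, which degrades heme, went from 20.3, 21.4 and 17.7 to 14.4, 15.6 and 14.4 CPM, without overlap (-0.42 ± 0.08, adjusted p = 0.00423). Of 72 cytosolic ribosomal protein genes edgeR with all libraries, DESeq2 and limma-voom called 0, and 4 had an unadjusted p under 0.05. Without 6 h replicate 3, in which these genes were high, edgeR called 4 lower.

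Smaller groups held a few calls. Of 30 mitosis genes 3 rose, and 4 without 6 h replicate 3, beside 1.17% and 2.54% of all tested genes. With all libraries, Cenpf, a kinetochore protein, rose by 0.27 ± 0.04, Aspm, a spindle pole protein, by 0.23 ± 0.05, and Cenpa, the centromeric histone, by 0.16 ± 0.04. Cenpf kept its call in all 6 fits that left out a library, while those of Aspm and Cenpa were lost in 4 and 5, up to 0.167 without unstimulated replicate 1 and 0.248 without unstimulated replicate 3. Of 29 DNA replication genes edgeR, DESeq2 and limma-voom called 0, and 2 had an unadjusted p under 0.05. Of 19 p53 pathway genes Trp53inp1, Btg2 and Ccng2, all linked to growth arrest, rose by 0.26, 0.21 and 0.27. Of all tested genes 1.17% rose. Of the 19, 5 had a log2 fold change above 0, and the median of the list was -0.06. Each of the 3 calls was lost in 2 of 6 fits, up to 0.110 for Ccng2 without unstimulated replicate 1. Fcgr2b, an inhibitory antibody receptor of B cells, rose by 0.17 ± 0.04. Its call was lost in 5 of 6 fits, up to 0.203 without unstimulated replicate 3.

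Among the largest rises outside these groups was Slco1b2, an organic anion transporter of the liver type, at 5.05, 5.89 and 5.89 CPM unstimulated and 10.999, 9.97 and 10.9 CPM after 6 h (0.92 ± 0.10, adjusted p = 6.81e-07). Cacna1e, a voltage-gated calcium channel subunit, rose from 4.24, 4.71 and 4.70 to 9.10, 9.89 and 8.20 CPM (0.99 ± 0.11), and Atp1b1, the beta subunit of the sodium pump, from 49.4, 49.1 and 46.9 to 66.7, 72.4 and 62.6 CPM (0.47 ± 0.06). The groups of these 3 genes were apart. All 3 were also called higher after 1 h of blocked exposure, against the same unstimulated libraries. Their means were then 9.89, 8.07 and 67.3 CPM, against 10.6, 9.06 and 67.2 CPM after 6 h. After 24 h they were 6.76, 8.34 and 30.5 CPM, so Atp1b1 was then below its unstimulated mean of 48.5 CPM. Slco1b2, Atp1b1 and Cd36 belong to a list drawn from earlier results of these samples and are no independent evidence of it. Col27a1, a fibrillar collagen chain, rose from 9.54, 9.74 and 10.7 to 15.9, 16.7 and 17.6 CPM (0.74 ± 0.08, adjusted p = 1.92e-06).

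Against cells blocked at 1 h, which also received IFN-γ and antibody, 14 of 14299 genes (0.0979%) were called by edgeR, 12 higher (0.0839%) and 2 lower (0.014%). Cells of both groups carry antibody, so this contrast does not depend on whether unstimulated cells did. The 1 h group was blocked earlier, so its longer time with antibody cannot be told apart from its shorter exposure to IFN-γ. Of the 14, 13 were also called against unstimulated cells, and both contrasts use the same 6 h libraries. Class I genes were among them: H2-K1 was at 63.9 ± 2.6 CPM (n = 3) after 1 h and 101 ± 2.6 CPM after 6 h, a difference of 0.66 (adjusted p = 9.07e-10), and H2-D1 at 102 ± 2.2 and 138 ± 2.6 CPM. H2-Q4, B2m, Tap1, Gbp2, Gbp3, Gm1966, Gm4070, Ifi47 and Col27a1 were higher too, as was Ifi30, a lysosomal thiol reductase. Ifi30 was the gene of the 14 not called against unstimulated cells. Hist1h1c was at 41.3 ± 3.3 CPM after 1 h and 32.9 ± 2.3 after 6 h, and Aldoa at 397 and 334 CPM; these were the 2 lower genes. The count was 24 without 6 h replicate 3, and 8 without 1 h replicate 2 or 3.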

How the data were processed

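The authors deposited 1 table of whole-number read counts per gene for 12 samples, used here without change. The submitters' processing notes name mm10, Picard, featureCounts 1.4.3-p1 and STAR 2.5.2a. The strand setting and annotation release of the counting are not given in these sources, so genes with an antisense partner are uncertain. Per the labels, libraries were stranded and made from polyadenylated RNA, which leaves most histone transcripts out. Low counts were mostly even (69.9% to 73.9% of values from 1 to 20), as when each mate adds 1 count. The floor for a group at 0 was therefore 6 counts, or 3 read pairs. Column names were matched to sample titles. Of 53379 identifiers 53274 had a symbol in the reference names table, and coordinates (GRCm38, 1-based) and exon lengths came from GENCODE M21, which held 14281 of the 14299 tested genes.

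Counts were filtered by group (filterByExpr) and scaled by TMM, and 1 fit of all 12 libraries was made in edgeR 4.0.16 (R 4.3.3) by robust quasi-likelihood F tests, which had 8 residual degrees of freedom. A gene is called at an adjusted p (Benjamini-Hochberg, over 14299 genes) under 0.05. Standard errors are approximate, taken as the size of the log2 fold change over the root of F. Alternatives were DESeq2 1.42.0, limma-voom (limma 3.58.1), other filters and scalings, removal of length and GC trends by lowess (span 0.3), a replicate block, and leaving out each library. The method was tried on simulated data with 1 spread for all genes and no library standing apart. It called 93 of 100 genes changed by a log2 fold of 0.5, 100 of 100 changed by 1 and 6 of 14099 unchanged. The real libraries differ from that setting, so these counts do not measure the error of the calls made here. Each pair of libraries within the 2 compared groups differed by more than sampling noise, in counts halved to read pairs, so none was counted as a repeat.

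The members and lists were chosen with earlier results of these data known, so list counts are descriptions. Genes are named where they were set by name, led a list, or were called against both unstimulated and 1 h cells. Also named are the 10 largest rises and falls among called genes above 1 CPM whose groups did not overlap. The separation of those genes was thus fixed by the rule. Of the 228 genes called, 224 had groups that did not overlap, so separation adds little to a call. For 6 h replicate 3, the 5 genes furthest above and below the other 6 h libraries are named, among genes with a 6 h mean of at least 10 CPM. List members that were not called, and Cd74, Ikzf3, Gvin1, Foxp1, Foxo1, Spib, Ifi30 and the genes of the closing observations, were picked after their values were seen. Some genes that the rule names are not reported here.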

Additional observations from a re-analysis of the deposited data

Results flagged for a closer look

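The differences between 6 h and 1 h of exposure, both blocked with antibody, were tested directly in the edgeR fit of all libraries, and 13 named genes passed an adjusted p under 0.05 there as well as against unstimulated cells. For class I presentation the log2 difference of 6 h from 1 h was 0.66 for H2-K1, 0.45 for H2-D1, 0.69 for H2-Q4, 0.33 for B2m and 0.36 for Tap1. Among GTPases it was 1.30 for Gbp2, 0.37 for Gbp3, 0.59 for Gm1966, 1.68 for Gm4070 and 0.68 for Ifi47. Col27a1 was 0.51 higher after 6 h. The lower genes were Hist1h1c at -0.33 and Aldoa at -0.25.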

How the results depend on the processing

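Against the 228 genes called (167 higher, 61 lower), DESeq2 called 398 (274 and 124), a filter of at least 1 count in any library gave 413 (282 and 131), and the 6 compared libraries alone gave 95 (79 and 16). Removing the GC trend called 305 (213 and 92). An adjusted p under 0.01 left 80 (66 and 14) and a log2 fold change of at least 1 left 21 (20 and 1). Leaving out 1 compared library gave 89 to 531 genes, 70 to 371 higher and 18 to 160 lower. Against 1 h the 14 calls became 40 with DESeq2 and 9 with limma-voom, and 8 to 24 without 1 library. The replicate block called 265 against unstimulated and 16 against 1 h. Same-numbered libraries deviated together with correlations of 0.0265, 0.0292 and 0.0618, so the numbers were not taken to pair them, and 2 of 3 6 h libraries correlated best with their own number. For 67 named genes that were called, 611 of 667 values kept direction and call under the other settings and 291 of 402 without 1 library; the rest kept direction and lost the call, and 0 reversed.

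Of named genes that were not called, 7 changed sign in some fit; the cause was not tested. Over the fits without 1 compared library the log2 fold change ran from -0.14 to 0.75 for Fosb, from -0.18 to 0.24 for Gm12715, from -0.50 to 0.018 for Rpl17-ps5, from -0.13 to 0.27 for Rpl39-ps, from -0.46 to 0.021 for Rps27rt, from -0.25 to 0.092 for Rps29 and from -0.033 to 0.27 for Socs5. For Rps29 it was 0.012 with the length trend and 0.0031 with the GC trend removed. Genes under 1 CPM rest on few read pairs, and folds there are imprecise.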

Other observations

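Several genes outside the lists were also higher after 6 h, and were picked after their values were seen. Cybb, the membrane subunit of the phagocyte NADPH oxidase, was at 19.5, 19.5 and 23.05 CPM unstimulated and at 33.9, 32.2 and 32.1 CPM after 6 h, without overlap (0.66 ± 0.07, edgeR adjusted p = 2.15e-07). Pim1, a kinase that promotes survival, went from 33.7, 32.4 and 33.6 to 45.5, 45.2 and 42.5 CPM (0.42 ± 0.06, adjusted p = 0.000183). Il6ra, the interleukin-6 receptor chain, rose by 0.37 ± 0.05, and Cysltr1, a receptor for cysteinyl leukotrienes, by 0.35 ± 0.05. Bmf, a BH3-only protein that promotes apoptosis, rose from 14.9, 13.6 and 13.8 to 19.6, 21.5 and 17.9 CPM (0.48 ± 0.08, adjusted p = 0.000598). The groups of these genes did not overlap, and the direction was the same without 6 h replicate 3, where the log2 fold changes were 0.67 for Cybb, 0.44 for Pim1 and 0.54 for Bmf.

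Serpina3g, a serine protease inhibitor, had 0 counts summed over unstimulated cells and 28 after 6 h, at least 4.57-fold higher against a floor of 6 counts over the group, which covers counting error only. Its near copy Serpina3f can share reads with it, so the single gene is uncertain.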
